A study of Mus musculus and Rattus norvegicus with 4 samples.

Results

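Npas4 encodes a transcription factor of the bHLH-PAS class, and its locus held the second-highest score among the MEF2A peaks of C2C12 cells, a mouse skeletal myoblast line. The gene was chosen by its peak score, so score and width are given as a description, with no test. All peaks within 500 kb of the gene's span were taken, and there was 1, of 2797 in the C2C12 list. Binding was measured by ChIP-exo, in which an exonuclease trims the immunoprecipitated DNA towards the edges of the bound protein. The cells had been kept for 48 h in differentiation medium with reduced serum, and an antibody to MEF2A was used. The series also holds a MEF2A library from primary cardiomyocytes of newborn rats and control libraries made with Normal Rabbit IgG from both kinds of cell. Each group has 1 library. The IgG libraries and the rat position of Npas4 were not analysed here, and the peak list carries no expression, so the cell type named in the labels could not be checked against marker levels. Without replicates every value below describes 1 library, and read depth is unknown.

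MEF2A belongs to the myocyte enhancer factor 2 family, whose members bind an A/T-rich DNA element and act in muscle differentiation and, in neurons, in the response to electrical activity. NPAS4 is best known from neurons, where calcium entry induces its gene rapidly and the protein then pairs with a partner of the ARNT family to bind DNA. Calcium channels, calmodulin-dependent kinases, calcineurin and the class IIa histone deacetylases are among the factors that pass a calcium signal to MEF2 proteins.

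In the reference annotation Npas4 (gene ID 225872) spans 19.1 kb of chromosome 19, from 4984353 to 5003439 (mm10), and is read from the minus strand. The peak lay at 4992552 to 4993322, which is inside that span. It was nevertheless upstream of the start site that the promoter table gives for Npas4, at 4989971. The near edge of the peak was 2.58 kb upstream of that site, its centre 2.97 kb and its far edge 3.35 kb. The span continues for 13.5 kb upstream of the listed start site and for 5.62 kb downstream of it. It is drawn from 1 curated and 3 predicted transcripts. Of 17492 protein-coding genes with a listed start site, 524 (3.00%) had a span reaching 10 kb or more beyond their outermost one, and the median was 0 bp. With the listed site taken as the upstream end of Npas4, the peak overlapped no gene. Exons and introns were not distinguished, and whether the region lies within a transcript in C2C12 cells is unknown.

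The sequence just upstream of the listed start site is shown because it is the annotated Npas4 promoter and lay outside the peak. It is set beside the promoters of Jun and Atf3, genes of activity-regulated transcription factors whose own promoters lay under MEF2A peaks. Each run gives the 250 bases before the listed start site on the gene's strand (RefSeq, GRCm38.p6). Capitals mark the short form of the CRE, TGACG on either strand, in Npas4, and the MEF2 consensus in Jun and Atf3.
Npas4 (chr19:4989972-4990221, minus strand): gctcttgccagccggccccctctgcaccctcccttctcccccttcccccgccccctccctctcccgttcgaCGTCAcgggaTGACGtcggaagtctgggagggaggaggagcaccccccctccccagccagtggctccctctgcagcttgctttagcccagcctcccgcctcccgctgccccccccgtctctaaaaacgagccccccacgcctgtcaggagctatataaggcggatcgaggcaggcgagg
Jun (chr4:95052223-95052472, minus strand): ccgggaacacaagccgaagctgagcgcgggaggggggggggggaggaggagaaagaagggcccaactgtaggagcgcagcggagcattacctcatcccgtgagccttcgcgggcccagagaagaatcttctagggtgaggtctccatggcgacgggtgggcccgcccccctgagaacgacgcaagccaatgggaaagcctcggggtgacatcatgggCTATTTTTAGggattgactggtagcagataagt
Atf3 (chr1:191183334-191183583, minus strand): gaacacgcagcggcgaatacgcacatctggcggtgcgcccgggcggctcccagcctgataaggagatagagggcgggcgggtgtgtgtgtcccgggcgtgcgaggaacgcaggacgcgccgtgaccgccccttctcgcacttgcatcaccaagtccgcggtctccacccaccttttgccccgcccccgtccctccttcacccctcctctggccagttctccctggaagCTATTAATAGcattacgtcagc

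The 300-base promoter window of Npas4, which adds 50 bases after the start site, held no match to the MEF2 consensus on either strand, and none with 1 mismatch allowed. Its core, TA and TA around 4 bases that are each A or T, was not found either. The consensus occurred in 3.19% of 32851 promoter windows and the core, which every consensus match contains, in 9.32%. The absence covers these letters in this window only. The sequence under the Npas4 peak itself was not used here, so it was not searched.

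The Npas4 window held 2 short CREs, the first on the other strand at 179 to 175 bases before the start site and the second on the gene's strand at 169 to 165. The short CRE is part of the site bound by CREB, a calcium-responsive factor, and was found in 20.8% of windows. The full CRE, TGACGTCA, was not found in Npas4 and occurred in 1.79% of windows. For this and the other motifs of this paragraph only exact letters were counted, so near matches were missed. The short site of bHLH-PAS partner proteins, CGTG, matched in 2 places on the other strand, of which the one at 176 to 173 bases overlapped a short CRE, and it occurred in 61.7% of windows. There was no E-box (CANNTG, 72.3% of windows), no longer partner site (TCGTG, 16.0%), no TATAAA (13.6%) and no CArG box (1.63%).

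In Jun, which encodes an AP-1 subunit, the MEF2 consensus began 33 bases before the start site, at 95052246 to 95052255 on chromosome 4. It lay inside a peak at 95051977 to 95052470 with a score of 577. In Atf3, a stress-inducible factor gene, the consensus began 22 bases before the start site, at 191183346 to 191183355 on chromosome 1. It too lay inside a peak, at 191183206 to 191183838 with a score of 286. Nr4a1, an orphan nuclear receptor gene, also had a peak over its promoter window (score 131) but no consensus match in the 250 bases before its start. That peak ended 180 bases before the start and reached beyond the window, so only part of it was searched. These were the 3 genes with a peak over the promoter among the 27 of 36 neuronal activity-regulated genes that have a promoter window. Over all genes, 99 of 32851 windows lay under a peak and 13 of those 99 (13.1%) held the consensus. Here windows were counted, and a gene can have more than 1. The stretch before the start site of Ankrd1, which lay at a higher-scoring peak (1275), held no consensus match either. That peak too reached beyond the stretch searched. A promoter window that overlapped a peak thus mostly lacked the consensus, although the share with it was higher than the 3.19% of all windows. Only windows were searched, so a match in a part of the peak outside its window would be missed. The Npas4 promoter, outside its peak, lacked it, as most windows did.

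The authors gave each peak a score, on a scale no header states. The peak list does not say whether it measures strength of binding or confidence in the peak. Ratios of scores, and scores per base, therefore compare scores only and are not fold differences in binding. The Npas4 peak scored 2912, which was 37.8 times the median of the list (77.0, quartiles 59.1 and 139). Only the peak in Fggy, a carbohydrate kinase gene, scored higher, at 3100. Whether 3100 is the ceiling of the scale was not tested. The third score was 2277, in Matn2, a matrilin gene of the extracellular matrix, so the Npas4 score was 1.28 times the next one. Scores of 2000 or more were held by 7 peaks and scores of 1000 or more by 32 (1.14%), while the 99th percentile was 1123. On chromosome 19, which had 74 peaks with a median score of 72.7, the Npas4 peak ranked first. The second there, over the start site of Ankrd1 (a titin-associated stress-response gene), scored 1275, and the Npas4 score was 2.28 times that.

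The Npas4 peak was 771 bp wide, 5.35 times the median of 144 bp (quartiles 116 and 230 bp). It was the seventh-widest of the list, and ranked 41 when peaks under 1 kb apart were merged into single regions. Score and width increased together over the 2797 peaks (Spearman rho 0.73, a description across peaks of 1 library). Of the 84 peaks that were 500 bp or wider, the scores ran from 148 to 3100 with a median of 738, and Npas4 was second. The 6 wider peaks had lower scores. The widest, 3636 bp with a score of 1283, was 23.6 kb from Col19a1, and a peak of 1233 bp in Myo3a scored 603. The others were 862 bp (score 1437, in Zfp474), 861 bp (score 2067, near Tex44), 784 bp (score 1164, near Gm51579) and 783 bp (score 2172, near Dot1l). Per base of width the Npas4 score was 3.78, against a median of 0.56 and a maximum of 5.87 in the list, and ranked ninth. Its score per base was exceeded by that of 8 peaks.

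**Figure D1:**
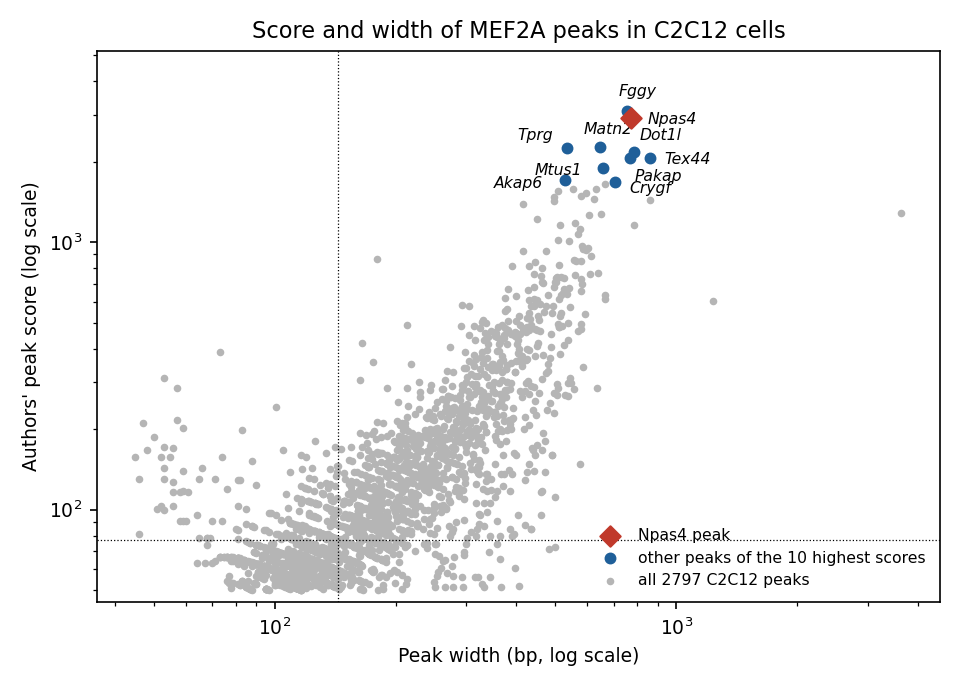
Width in bp (x axis) and the authors' score (y axis) of each C2C12 peak, both on log scales. The red diamond is the Npas4 peak, blue points are the other 9 of the 10 highest-scoring peaks named by their nearest protein-coding gene, grey points are all 2797 peaks, and dotted lines are the medians (144 bp and 77.0). The Npas4 peak (771 bp, 2912) lies next to the Fggy peak at the top right.

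The peaks most like that of Npas4 were found as those nearest to it in log2 score and log2 width. They were the peaks in Fggy (distance 0.10), near Dot1l (0.42), in Matn2 (0.44), in Pakap (0.49) and near Tex44 (0.52). All of them were also among the 10 highest scores, so the likeness follows in part from the rule that chose Npas4. Dot1l, which encodes a histone methyltransferase, had the most similar position. Its peak was 783 bp wide, scored 2172 and lay upstream of the listed start site, with the near edge 3.13 kb from it and the centre 3.52 kb. The Fggy peak lay on the other side of its listed start site, with the near edge 57.5 kb downstream, and that of Pakap, a gene of a kinase anchoring protein, 19.9 kb downstream. Neither matched the Npas4 peak in position, although their widths (752 and 768 bp) differed from it by few bases.

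Of the 2671 C2C12 peaks on chromosomes with start sites in the promoter table, 128 (4.79%) lay upstream of their nearest listed start site with the near edge 1 to 5 kb away, as the Npas4 peak did. Among the 99 such peaks in the 100 highest scores the number was 6 (6.06%), and among the 10 highest it was 2, Npas4 and Dot1l. Within 1 kb of a listed start site lay none of the 10 highest peaks, 10 of those 99 and 184 of all 2671 (6.89%). Not every gene has a start site in the table, so other peaks may lie nearer to a start site than these counts show. The Matn2 peak, inside Matn2, was 1563 kb from the nearest listed site and is among those counted.

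Within 500 kb of the Npas4 span there was no second MEF2A peak, although the region is dense in genes. The nearest other peak lay 794 kb away on the higher-coordinate side, at 5787292 to 5787425 (score 67.05, 134 bp). On the lower side the nearest was 1744 kb away, at 3248359 to 3248462 (score 68.85, 104 bp). The median distance from a C2C12 peak to the nearest other was 113 kb, and 86.5% of peaks were less isolated than that of Npas4. A lack of any second peak within 500 kb was not rare, at 592 peaks (21.2%), among them 22 of the 100 highest-scoring and, of the 10 highest, Npas4 and the peak nearest to Crygf. Of 21887 protein-coding genes, 60.2% had a peak within 500 kb of their span, and 5802 (26.5%) had exactly 1, like Npas4. For 63 genes that only peak scored 1000 or more. Neighbouring genes can share the same peak, so these are not 63 separate peaks. Genes around Npas4 that have the Npas4 peak as their only one, such as Mrpl11 and Slc29a2, are among them.

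The window held 65 annotated genes including Npas4, of which 50 were protein-coding, 7 were long noncoding RNA genes, 6 were pseudogenes, 1 was a miRNA gene and 1 a tRNA gene. Counted from the peak, 48 protein-coding spans lay within 500 kb, against a median of 8 around the C2C12 peaks, and 98.4% of peaks had fewer. Of the 10 highest-scoring peaks only that near Dot1l had more, with 54, and the Fggy peak had 4. The Npas4 peak therefore stood alone in a gene-rich stretch.

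No gene other than Npas4 overlapped the peak. On the lower side the nearest protein-coding span was Mrpl11, a mitochondrial ribosomal protein gene, at 25.6 kb, followed by Peli3, a ubiquitin ligase gene, at 49.4 kb and Dpp3, a dipeptidyl peptidase gene, at 64.3 kb. On the upper side it was Slc29a2, a nucleoside transporter gene, at 25.7 kb, followed by B4gat1, a glucuronyltransferase gene of dystroglycan glycosylation, at 45.5 kb and Brms1 at 48.0 kb. The peak thus lay at about the same distance from the next span on either side. Measured to listed start sites, the next after Npas4 were those of Mrpl11 (30.2 kb) and Slc29a2 (30.7 kb). A pair of genes in the window was picked out after their values were seen. Actn3, which encodes the alpha-actinin of fast muscle fibres, lay 115 kb away, and Fosl1, an AP-1 gene, 454 kb away. Neither had a peak of its own, which follows from the Npas4 peak being the only one in the window.

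**Figure D2:**
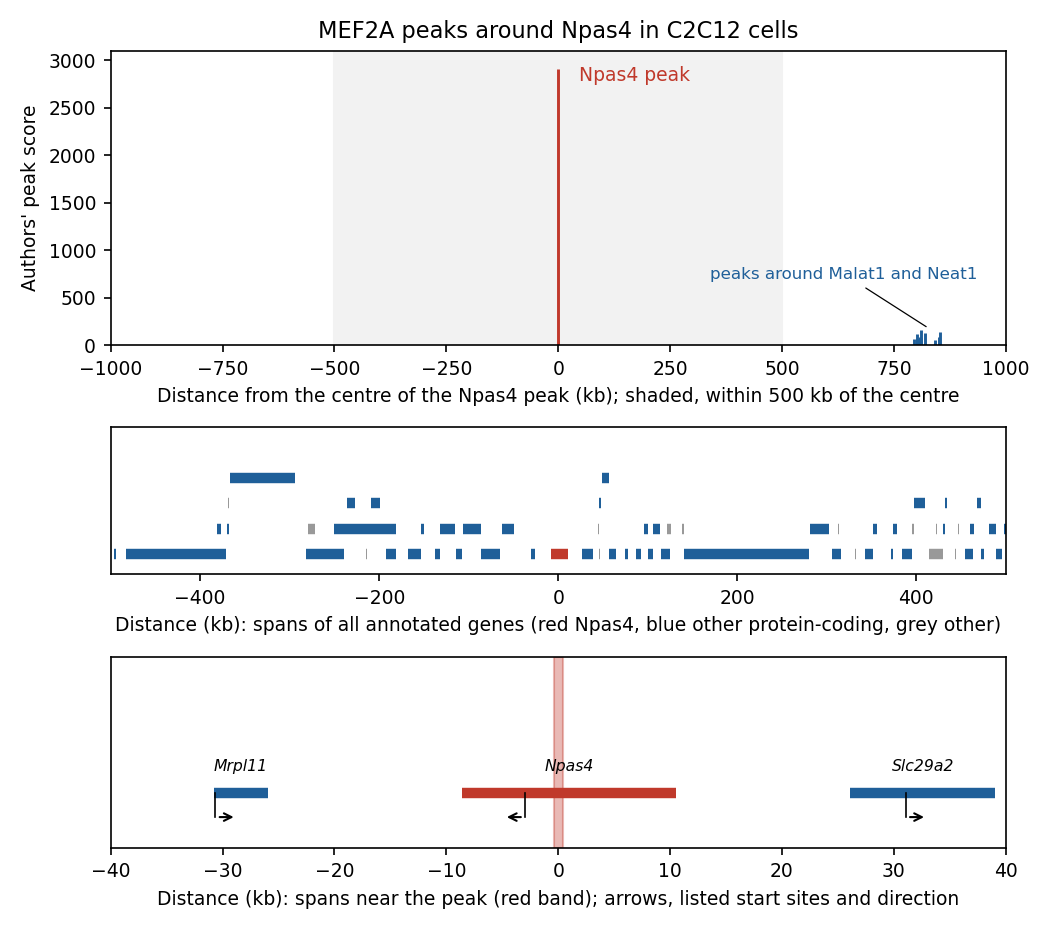
MEF2A peaks and genes around Npas4, by distance in kb from the centre of the Npas4 peak. The top panel gives the authors' score of each peak as a line over 1000 kb on either side, the middle panel the spans of all annotated genes, and the bottom panel the spans nearest to the peak with listed start sites as arrows. The only peak within 500 kb is that of Npas4 (2912), and the next ones, around Malat1 and Neat1, score at most 161.

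**Figure D3:**
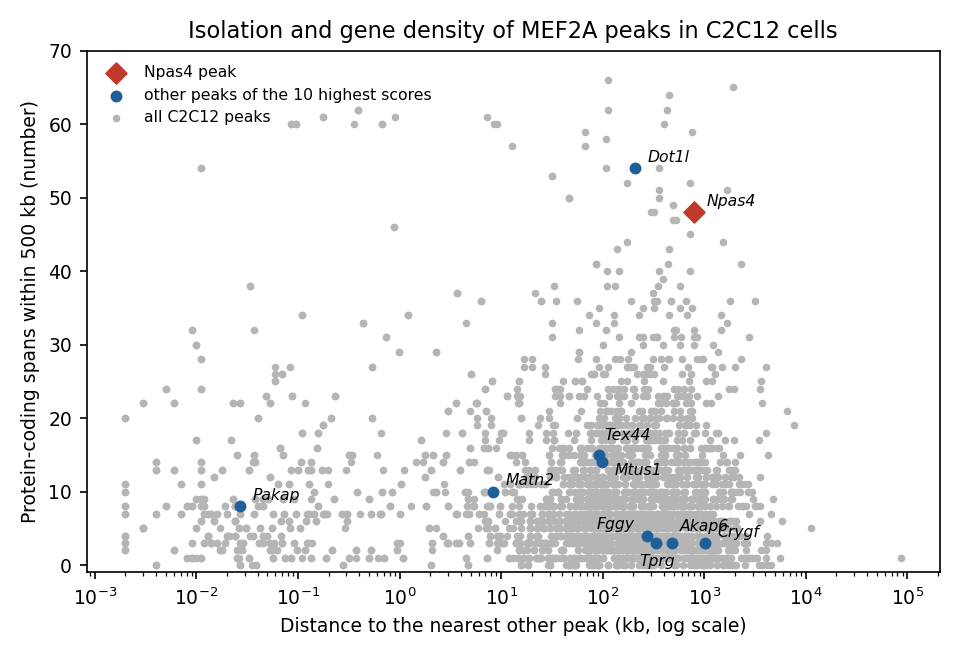
Distance to the nearest other peak in kb on a log scale (x axis) and the number of protein-coding spans within 500 kb (y axis) for each C2C12 peak. The Npas4 peak (red diamond) is at 794 kb and 48 spans, the other 9 of the 10 highest-scoring peaks are blue, and the Dot1l peak is at 209 kb and 54 spans.

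Npas4 was then set beside its gene family and the genes of its pathway, counting for each protein-coding gene the peaks within 100 kb that had it as their nearest. By this rule 7.73% of the 21887 protein-coding genes had a peak, and the median of their highest scores was 88.7. Npas4, with 1 peak, was second among these 1691 genes, a rank that follows from its choice by peak score. Of the other 21 bHLH-PAS and partner genes, 5 (23.8%) had a peak, with a median highest score of 105. Among peaks scoring 100 or more the number was 3, and 3.47% of all protein-coding genes then had one. With a limit of 10 kb it was also 3, and 5.75% of all protein-coding genes then had a peak. Arntl, a circadian partner of CLOCK, lay 57.0 kb from a peak of score 155. Ncoa1, a nuclear receptor coactivator gene, held a peak of 117, and Arnt2, a partner of NPAS4, one of 105. Npas3, another bHLH-PAS gene, held a peak of 71.4, and Per3, a circadian repressor gene, lay 23.4 kb from one of 54.65. No family member other than Npas4 had a score above 155, and Arnt, Npas1, Npas2, Clock and Hif1a had no assigned peak.

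Genes that neuronal activity induces had a peak in 11 of 36 cases (30.6%), with a median highest score of 131, and in 7 cases at a score of 100 or more. The matching shares of all protein-coding genes were 7.73% and 3.47%. Btg2, an antiproliferative gene, was highest (615, at 3.65 kb), followed by Jun (577), Nfil3, a bZIP repressor gene (347, at 50.5 kb), and Atf3 (286). Ccn1, a matricellular protein gene (198, at 1.75 kb), and Nr4a1 (131) came next, and the others were Dusp1, Fosb, Fosl2, Fos and Ptgs2. Npas4 was left out of this list. Its score was above that of every member, which follows from its choice by score. Bdnf, which encodes a neurotrophin and is a known target of NPAS4 in neurons, had no assigned peak.

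Genes that carry a calcium signal to transcription had a peak in 5 of 36 cases (13.9%), with a median highest score of 100, and in 3 cases at a score of 100 or more. Over all protein-coding genes these shares were 7.73% and 3.47%. Hdac5 (195) and Hdac9 (80.2) encode class IIa deacetylases that repress MEF2 proteins. Camk2d (144) and Camk2b (56.6) encode kinases activated by calmodulin, and Mef2c (100.2, the highest of 3 peaks) is a MEF2 gene. All 5 had the highest of their peaks inside the span. The Npas4 score was above each of them, which again follows from the choice of Npas4 by its score.

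For contrast, 9 of 18 skeletal muscle markers (50%) and 2 of 18 neuron markers (11.1%) had a peak. At a score of 100 or more these counts were 3 and 1. Of all protein-coding genes, 7.73% had a peak, and 3.47% had one at a score of 100 or more. The median of the highest scores was 80.7 for the 9 muscle genes. For the neuron genes it was 232, but it rests on only 2 values, 410 and 54.7, so the medians are not comparable. Des, the desmin gene, was highest among the muscle genes (925, at 12.5 kb), followed by Ttn, the titin gene (187), Myh3, the embryonic myosin gene (143, at 2.53 kb), Mylpf (82.5), Tnni2 (80.7, at 0.15 kb) and Tnnt3 (76.7), which encode fast-fibre proteins. The neuron genes were Syn2, a synapsin gene (410, at 1.54 kb), and Nefl, a neurofilament gene (54.7, at 11.9 kb). No difference between lists was tested. A nearby peak is a position and not a measure of regulation, and whether Npas4 is expressed in these cells was not measured here.

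**Figure D4:**
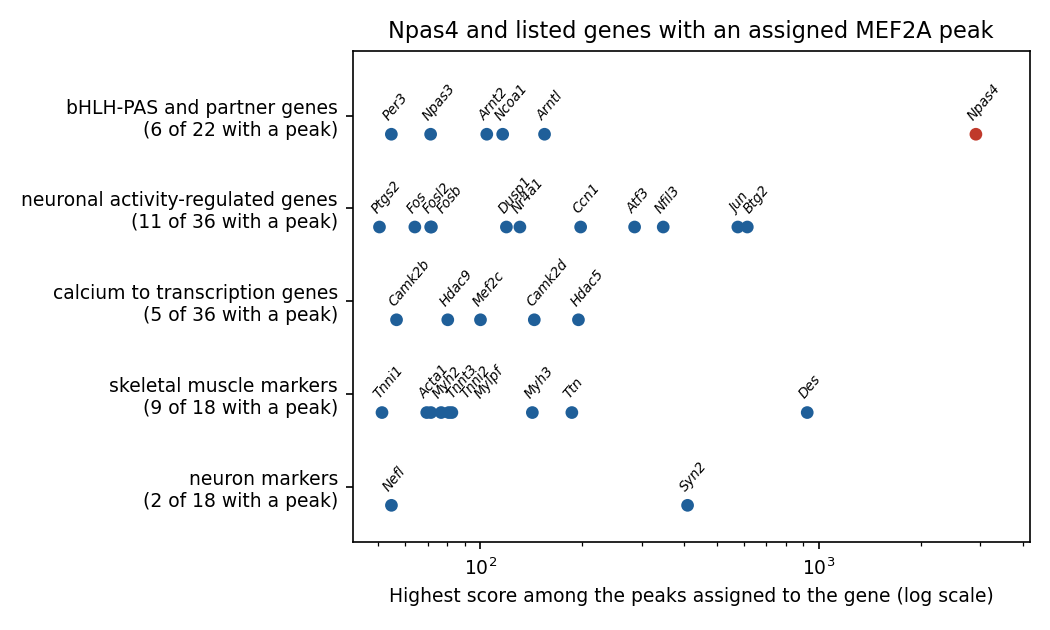
Highest score, on a log scale, of the peaks assigned to each listed gene that had one, with 1 row per list. Npas4 (red, 2912), which was chosen for its high score, lies above all other listed genes, of which Des (925) is the next.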

How the data were processed

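The authors deposited 1 peak list per MEF2A library, with position, name and a score per peak and no header. Per the submitters' processing notes, MACS 1.4.2, BWA 0.5.9, SAMtools, Picard and CASAVA 1.7.0 were used, with builds mm10 and rn5. Settings, and any role of the IgG library in peak calling, are not given in the sources used here. Deposited scores were used only to describe, rank and filter peaks within the C2C12 list. Deposited starts count from 0, and printed ones from 1.

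Gene spans came from the RefSeq gene table (GRCm38.p6, equivalent to mm10 on these chromosomes), and start sites and promoter sequence from RefSeq windows of 250 bases before to 50 after a start, for 27025 genes. Distances run between nearest edges and are 0 on overlap. Chromosome 18 was left out of start-site counts. Npas4, the gene lists and the alternatives were chosen with earlier results of these data known. Genes named are those at the peak, its 3 nearest protein-coding neighbours on each side, the highest-scoring peaks, the 5 peaks most alike, and list members, with values for up to 6 per list. The Jun, Atf3 and Nr4a1 promoters, the wider peaks, Ankrd1, Actn3, Fosl1, the listed genes named as lacking a peak, and Malat1 and Neat1 were chosen after their values were seen. With 1 library per group no test was run. The distance search was checked with simulated peaks placed beside real gene spans. The motif search was checked with MEF2 matches planted in random sequence of C and G only, which cannot show false matches. The software was Python 3.11.15 with pandas 2.3.3, numpy 2.4.6, matplotlib 3.10.9 and scipy 1.17.1.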

Additional observations from a re-analysis of the deposited data

How the results depend on the processing

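The Npas4 peak stayed second by score when peaks under 1 kb apart were merged into 2560 regions, ranked ninth (9) by score per bp of width and first (1) on chromosome 19 alone. Its width rank was 7, also among peaks scoring 200 or more, and 41 after merging, which widens other regions by construction. It was the only peak within 500 kb, within 100 kb, at a score of 100 or more and after merging, while a window of 1 Mb held 16 peaks. It overlapped 1 gene with all annotated genes and from its centre, and 0 with the listed start site as the end of the Npas4 span, a setting chosen after seeing the data. Over all protein-coding genes, 5.75% (1259) had a peak with a limit of 10 kb and 3.47% (759) at a score of 100 or more, in place of 7.73% (1691). Of the lists, activity-regulated genes with a peak numbered 7 with a limit of 10 kb and 7 at a score of 100 or more, in place of 11. At that score calcium genes numbered 3 in place of 5 and muscle markers 3 in place of 9, and neuron markers 1 in place of 2 under both settings, with fewer peaks or a shorter reach entering by construction. In the bHLH-PAS list without Npas4, 3 genes in place of 5 had a peak under both settings. Depth is unknown, and no replicate shows whether the peak recurs. No paired analysis was possible because no group had more than 1 library.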

Other observations

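The peaks nearest to Npas4 on the higher-coordinate side formed a dense run at noncoding RNA genes. From 794 to 852 kb from the Npas4 peak there were 15 peaks, with scores of 50.46 to 160.51 (median 72.1, against 77.0 in the whole list) and widths of 105 to 442 bp, and all 15 lay within 10 kb of Malat1 or Neat1. Of these, 6 overlapped the span of Malat1, a gene of an abundant nuclear long noncoding RNA (chromosome 19, 5795690 to 5802672), and 4 overlapped that of Neat1, the scaffold RNA of paraspeckles (5824708 to 5845480).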
